A study of Homo sapiens with 9 samples.

Results

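The genes followed here encode MYC, its partner MAX, 4 further MAX-binding factors (MXD1, MXD3, MNT and MGA) and 2 MYB factors (MYB and MYBL2). They were taken by symbol from a table of normalised read counts, in which they are 8 of 20637 genes. The table holds polyA RNA sequencing of HL-60, an established cell line from an acute myeloid leukaemia with promyelocytic features. HRD cells are HL-60 resistant to daunorubicin (DNR), a topoisomerase-blocking anthracycline, with 30 nM of it in their medium. HRA cells are HL-60 resistant to cytarabine (Ara-C), a nucleoside that blocks DNA replication, with 100 nM of it in their medium. Parental HL-60 cells were grown with neither drug. Each group has 3 libraries from separate biological replicates. The labels name 1 resistant line per drug, so the effects of selection, of the drug still present and of 1 derived population cannot be told apart.

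MYC is a transcription factor that binds DNA only as a pair with MAX, preferring the E-box CACGTG, and drives ribosome production, nucleotide synthesis and growth. MXD1, MXD3, MNT and MGA also pair with MAX at such sites, where the MXD factors and MNT bring in the SIN3 histone deacetylase complex and MGA belongs to a Polycomb complex, so they act as its opponents. In HL-60, loss of MYC and gain of MXD1 are classic steps of induced maturation. MYB holds immature blood cells in a proliferating state, and MYBL2 joins the MuvB complex to activate genes of the later cell cycle.

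The promoters of MYBL2, MXD1 and MYB are shown because these 3 genes have the lowest adjusted p of the 8 between the resistant lines below and because MAX-bound factors and MYB factors could bind such stretches. Each stretch is the 250 bases before the gene's start in RefSeq on GRCh38.p14, all on the plus strand: MYBL2 at chr20:43666864-43667113, MXD1 at chr2:69914859-69915108 and MYB at chr6:135181058-135181307. Capitals mark the E-box CACGTG and the MYB motif, AACGG or AACTG on either strand, which do not overlap one another here.
MYBL2: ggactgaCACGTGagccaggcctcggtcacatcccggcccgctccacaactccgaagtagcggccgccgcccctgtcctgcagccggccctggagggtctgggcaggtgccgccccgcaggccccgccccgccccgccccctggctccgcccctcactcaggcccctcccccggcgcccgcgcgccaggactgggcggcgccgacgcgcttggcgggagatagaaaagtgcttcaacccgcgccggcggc
MXD1: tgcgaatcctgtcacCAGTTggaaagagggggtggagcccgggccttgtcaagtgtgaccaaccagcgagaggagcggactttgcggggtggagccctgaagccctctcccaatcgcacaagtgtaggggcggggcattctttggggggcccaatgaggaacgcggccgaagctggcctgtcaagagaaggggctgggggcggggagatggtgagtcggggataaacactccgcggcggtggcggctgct
MYB: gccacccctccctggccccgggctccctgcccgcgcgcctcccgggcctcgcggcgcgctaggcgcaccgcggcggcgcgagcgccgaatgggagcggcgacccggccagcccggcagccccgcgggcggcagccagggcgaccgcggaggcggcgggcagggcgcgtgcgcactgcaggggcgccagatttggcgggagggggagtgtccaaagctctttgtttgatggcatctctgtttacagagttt
Counted over these 250 bases and the 50 after the start, MYBL2 held 1 E-box and 1 MYB motif (the MYB match lies after the start, outside the printed stretch), MXD1 held 1 MYB motif and no E-box, and MYB held neither. Of 7 members with an entry, MNT was the other 1 with an E-box, and MXD3 and MGA held 1 MYB motif each. Over all 27305 promoters of this length, 7.43% held the E-box and 52.6% held the MYB motif. MYC had no entry. A match in letters describes the stretch and is no evidence of binding.

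The libraries held 20822709 to 66563328 reads in genes, and the 10 most abundant genes took 6.38% to 7.32% of them. Libraries that share the number 2 deviated together from their group means. Across genes r was 0.26 between HRD and parental, 0.38 between HRA and parental and 0.41 between HRD and HRA. In the same order it was −0.08, 0.22 and −0.03 for number 1 and 0.29, 0.14 and 0.23 for number 3, so this is not particular to number 2. Each call of a member is also given without the 3 libraries numbered 2 where it is lost. Summed promyelocyte markers reached 207561 to 265973 normalised counts in HRD, 256016 to 285445 in HRA and 285901 to 328595 in parental libraries, nearly all of it from MPO (myeloperoxidase), while ELANE (neutrophil elastase), a defining marker, had 2 reads in all in HRD, 4 in HRA and 6 in parental cells. Summed markers of other cell types were near 0 beside these. B cell markers summed to 1.51 to 6.45 in HRD, 23.1 to 40.6 in HRA and 8.99 to 19.6 in parental libraries, and T and NK cell markers to 2.14 to 3.01 in HRD, 10.965 to 31.1 in HRA and 18.0 to 18.4 in parental libraries. Red cell and platelet markers summed to 3.21 to 6.03 in HRD, 4.87 to 18.9 in HRA and 3.37 to 8.59 in parental libraries. Monocyte markers summed to 14.4 to 17.1 in HRD, 2.44 to 9.77 in HRA and 3.93 to 9.82 in parental libraries, with CD14 at 4 reads in HRD and none in the other groups, and fibroblast and epithelial markers to 4.27 to 12.1 in HRD, 0 to 1.22 in HRA and 0.561 to 7.49 in parental libraries. Cell number of a type and RNA per cell cannot be told apart in such bulk libraries.

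All 8 members were expressed, and all passed the filter of at least 10 normalised counts in at least 3 libraries. Between HRD and HRA cells, 4 of 8 members changed: MXD1 and MGA were higher in HRD, and MYB and MYBL2 were lower. Against parental cells, 1 of 8 members changed in HRD, where MXD1 was higher, and 0 of 8 changed in HRA. The members' log2 changes were small, with none beyond 0.58 in size. A gene is called changed here where limma on log2(normalised count + 1), fitted over all 9 libraries, gave a Benjamini-Hochberg adjusted p below 0.05 among 12569 tested genes. By that rule 30.1% of all tested genes changed between HRD and HRA (13.9% higher and 16.2% lower in HRD), 22.8% between HRD and parental (10.7% higher, 12% lower) and 15.2% between HRA and parental cells (9.13% higher, 6.1% lower). Each count of members is within 2 of what these shares give for 8 genes. The members' median log2 change was 0.20 for HRD against HRA, 0.05 for HRD against parental and −0.04 for HRA against parental, beside 0.003, 0.008 and −0.006 over all tested genes. In HRA against parental, 2 members (MYB and MYBL2) had an unadjusted p below 0.05, beside 31.3% of all tested genes, edgeR and DESeq2 on the recovered reads also called 0 members, and a model with a block for replicate number called 1. Without single libraries, the 4 members between HRD and HRA became 1 (without HRA replicate 1) or 2 (without HRA replicate 2), and the 1 in HRD against parental became 0 (without HRD replicate 1, parental replicate 1 or parental replicate 2) or 2 (without parental replicate 3).

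Scaled by exon length, the order of the members' mean levels was the same in HRD, HRA and parental cells. MYC came first with 5470.4 normalised counts per kilobase of exon in HRD, 6820.4 in HRA and 5783 in parental cells. MYB followed with 2569 in HRD, 3289.6 in HRA and 2775 in parental cells. MYBL2 had 1316 in HRD, 1963 in HRA and 1607 in parental cells, and MAX had 654 in HRD, 592 in HRA and 604 in parental cells. The opponents stood lower: MGA had 221 in HRD, 173 in HRA and 206 in parental cells, and MXD1 had 124 in HRD, 89.0 in HRA and 94.0 in parental cells. MNT had 74.5 in HRD, 61.8 in HRA and 64.4 in parental cells, and MXD3, the lowest, had 32.5 in HRD, 21.7 in HRA and 32.1 in parental cells. Within a group, no 2 neighbours in this order overlapped in any of their 3 libraries. Exon lengths are the union of annotated exons, so a gene expressed mainly as a short transcript is understated.

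**Figure D1:**
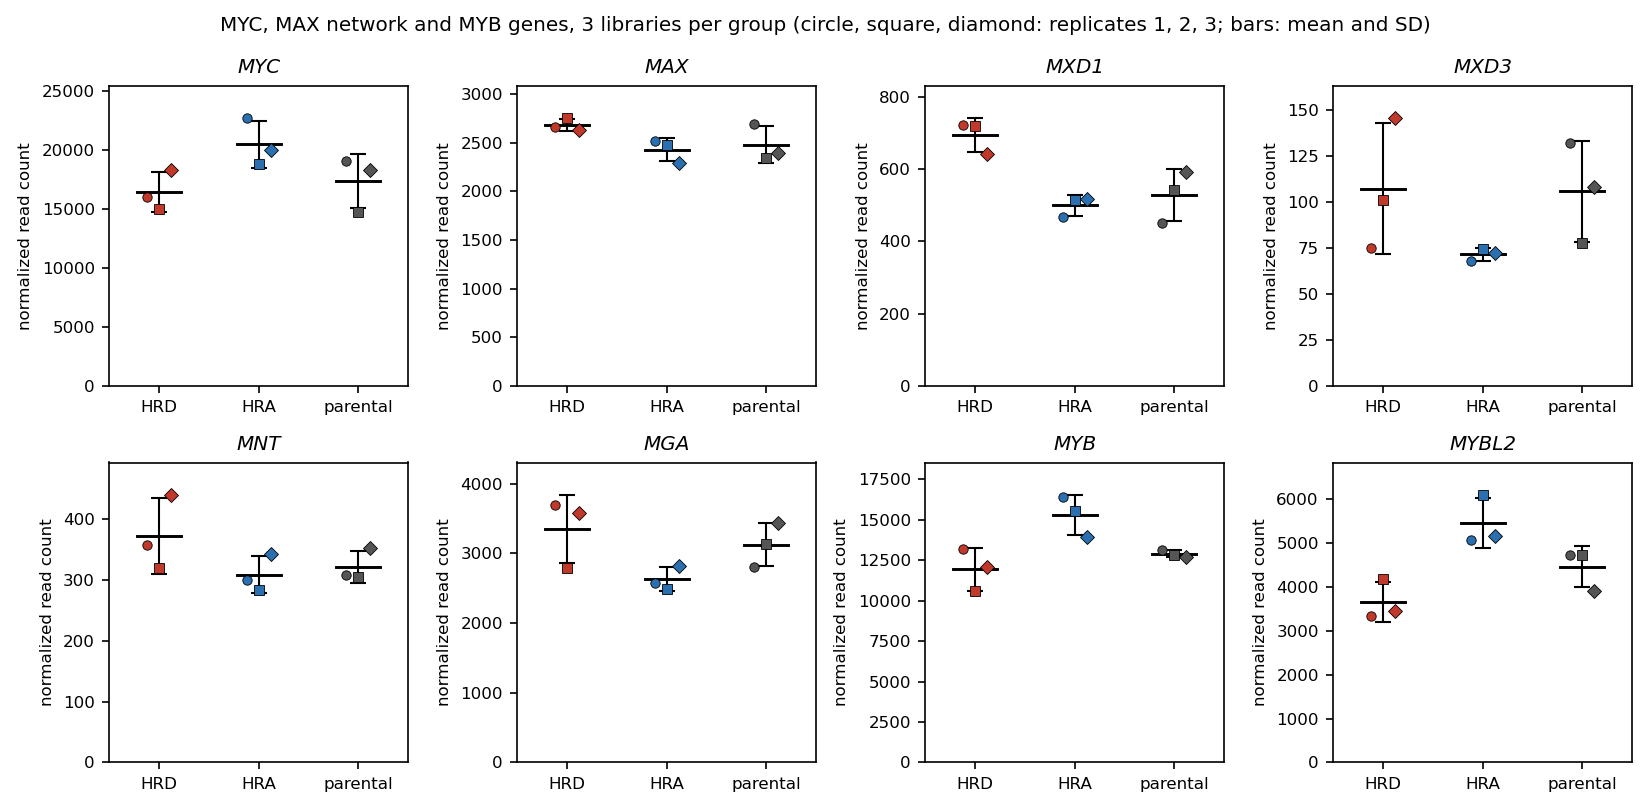
Normalised read counts of the 8 members in each library (points; circle, square and diamond are replicates 1, 2 and 3), with the group mean and SD as bars, on a separate scale starting at 0 for each gene. MXD1 is higher in all 3 HRD libraries than in any other, and MYBL2 is lower in all 3 HRD than in all 3 HRA libraries.

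MYC itself was called in no comparison. It had 15995, 14957 and 18298 normalised counts in HRD replicates 1 to 3, 22671, 18763 and 19970 in HRA and 19054, 14751 and 18257 in parental libraries. The lowest HRA library stood above the highest HRD library, while the parental libraries overlapped both lines. The log2 difference was −0.08 ± 0.12 (SE) for HRD against parental, with a 95% interval of −0.34 to 0.19 and an adjusted p of 0.699. For HRA against parental it was 0.24 ± 0.12, with an interval of −0.02 to 0.50 and an adjusted p of 0.191. For HRD against HRA it was −0.32 ± 0.12, with an interval of −0.58 to −0.06, and it missed the threshold at an adjusted p of 0.0639. That last value was past the threshold in DESeq2 (0.0394), in the model blocked by replicate number (0.0144), without HRD replicate 3 (0.0414) and without parental replicate 2 (0.0444). Its range over the alternatives tried was 0.0144 to 0.226.

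MAX, the shared partner, was called in no comparison. Its normalised counts were 2661, 2752 and 2633 in HRD, 2514, 2479.7 and 2290.5 in HRA and 2694, 2341 and 2398 in parental libraries. The HRD libraries were all above the HRA ones, and parental libraries overlapped both. The log2 difference was 0.12 ± 0.08 for HRD against parental (adjusted p = 0.328), −0.03 ± 0.08 for HRA against parental (0.845) and 0.14 ± 0.08 for HRD against HRA (0.191), with an upper 95% bound of 0.32 on the last.

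MXD1, an opponent of MYC that accumulates as myeloid cells mature, rose in HRD cells. It had 722, 720.04 and 641 normalised counts in HRD, 467, 515 and 518 in HRA and 450.1, 542 and 592 in parental libraries. Every HRD library was above every HRA and every parental library, and HRA and parental libraries overlapped. Against parental cells the HRD mean of 695 ± 46.2 (SD, n = 3) was 1.32-fold that of 528 ± 72.0, a log2 difference of 0.40 ± 0.12 with a limma adjusted p of 0.0325. Against HRA cells (500.1 ± 28.7) it was 1.39-fold, a log2 difference of 0.47 ± 0.12 with a limma adjusted p of 0.0128. HRA against parental gave −0.07 ± 0.12 (adjusted p = 0.726). The call against parental cells was lost under several alternatives: its adjusted p was 0.0729 without HRD replicate 1, 0.0965 without HRD replicate 2, 0.105 without parental replicate 1, 0.0595 without parental replicate 2, 0.0725 with only HRD and parental libraries fitted and 0.164 without the libraries numbered 2, in a range of 0.0138 to 0.164. The increase over HRA was lost without HRA replicate 1 (0.0603) and without the libraries numbered 2 (0.0901), in a range of 0.00233 to 0.0901, and its size stayed between 0.42 and 0.53 when single libraries were left out. Exons of MXD1 overlap those of SNRNP27, a spliceosome gene on the same strand, whose own log2 difference was −0.04 ± 0.13 for HRD against parental and 0.25 ± 0.13 for HRD against HRA, neither called.

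MGA, the largest MAX-binding protein, was higher in HRD than in HRA cells. It had 3686, 2785 and 3576 normalised counts in HRD, 2574, 2489 and 2822 in HRA and 2807, 3134 and 3435 in parental libraries. HRD replicate 2 lay below the highest HRA library, so these 2 groups overlapped, as each did with parental. The log2 difference for HRD against HRA was 0.34 ± 0.12 with a limma adjusted p of 0.0449. This call was lost without HRD replicate 1 (0.137), HRD replicate 3 (0.130), HRA replicate 1 (0.123), HRA replicate 2 (0.132), HRA replicate 3 (0.0590) or parental replicate 2 (0.0578), and with TMM scaling (0.0513) or no filter on low values (0.0633), in a range of 0.00873 to 0.137. Against parental cells the difference was 0.09 ± 0.12 for HRD (adjusted p = 0.614) and −0.25 ± 0.12 for HRA (0.171).

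MNT and MXD3, the other opponents, passed no test. MNT, which is present in both resting and dividing cells, had 357, 319 and 440.3 normalised counts in HRD, 299, 284 and 342 in HRA and 308, 306 and 352 in parental libraries, and the groups overlapped. Its log2 differences were 0.20 ± 0.14 for HRD against parental (adjusted p = 0.360), −0.06 ± 0.14 for HRA against parental (0.805) and 0.26 ± 0.14 for HRD against HRA (0.193). MXD3, linked to the S phase of cycling precursor cells, was the least abundant member. Its normalised counts were 74.9, 101 and 145 in HRD, 67.7, 74.4 and 71.9 in HRA and 132, 77.3 and 108 in parental libraries. All 3 HRA libraries lay below the others, although HRA replicate 2, at 74.4, was close to the lowest HRD library, at 74.9. The log2 differences were −0.0004 ± 0.26 for HRD against parental (adjusted p = 0.999), −0.53 ± 0.26 for HRA against parental (0.194) and 0.53 ± 0.26 for HRD against HRA (0.149). Exons of MXD3 overlap RAB24 on the same strand and PRELID1 on the opposite strand, and whether reads were counted by strand is not given in the sources used here, so reads of such genes cannot be told apart. Neither neighbour was called in any comparison.

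MYB was lower in HRD than in HRA cells. It had 13198, 10567 and 12068 normalised counts in HRD, 16415, 15535 and 13929 in HRA and 13141, 12845 and 12723 in parental libraries. All HRA libraries were above all parental and all HRD libraries, and the HRD libraries, which spread more widely, overlapped the parental ones. HRD cells averaged 11944 ± 1320 and HRA cells 15293 ± 1261 (SD, n = 3 each), a log2 difference of −0.36 ± 0.10 with a limma adjusted p of 0.0166. That call was lost without HRD replicate 2 (0.0620), HRA replicate 1 (0.0797), HRA replicate 2 (0.0545) and all libraries numbered 2 (0.186), in a range of 0.00373 to 0.186. HRD against parental gave −0.12 ± 0.10 (adjusted p = 0.424), and HRA against parental gave 0.24 ± 0.10 (0.113) although those groups did not overlap.

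MYBL2, whose mRNA is made mainly in dividing cells, had the largest log2 difference of the 8 members between the resistant lines. It had 3341, 4176 and 3444 normalised counts in HRD, 5083, 6106 and 5167 in HRA and 4731, 4738 and 3919 in parental libraries. The HRA libraries were the highest and did not overlap either of the other groups, while HRD and parental overlapped through HRD replicate 2 and parental replicate 3. HRD cells averaged 3654 ± 455 and HRA cells 5452 ± 568 (SD, n = 3 each), a log2 difference of −0.58 ± 0.11 with a limma adjusted p of 0.00343. It passed the threshold under all 20 alternatives tried, with adjusted p between 5.70e-05 and 0.0168. The estimates against parental cells had opposite signs and neither was called: −0.29 ± 0.11 for HRD (adjusted p = 0.0913) and 0.29 ± 0.11 for HRA (0.11001). The HRD value was past the threshold without HRD replicate 2 (0.0399) or parental replicate 3 (0.0467) and in the model blocked by replicate number (0.0228), in a range of 0.0228 to 0.228. The HRA value passed in that blocked model (0.0296), in a range of 0.0296 to 0.343. The third MYB gene, MYBL1, changed far more in relative terms at a low level: 120.1, 99.4 and 109 normalised counts in HRD, 112, 115 and 95.03 in HRA and 35.4, 44.2 and 35.97 in parental libraries. No resistant library of either line overlapped the parental ones. It rose by 1.49 ± 0.19 in HRD (limma adjusted p = 2.57e-04) and by 1.46 ± 0.19 in HRA (limma adjusted p = 7.20e-04) against the same parental libraries, with 0.03 ± 0.19 between HRD and HRA (0.927). Its levels per kilobase of exon were 20.9 in HRD, 20.5 in HRA and 7.35 in parental cells, far below those of MYBL2.

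**Figure D2:**
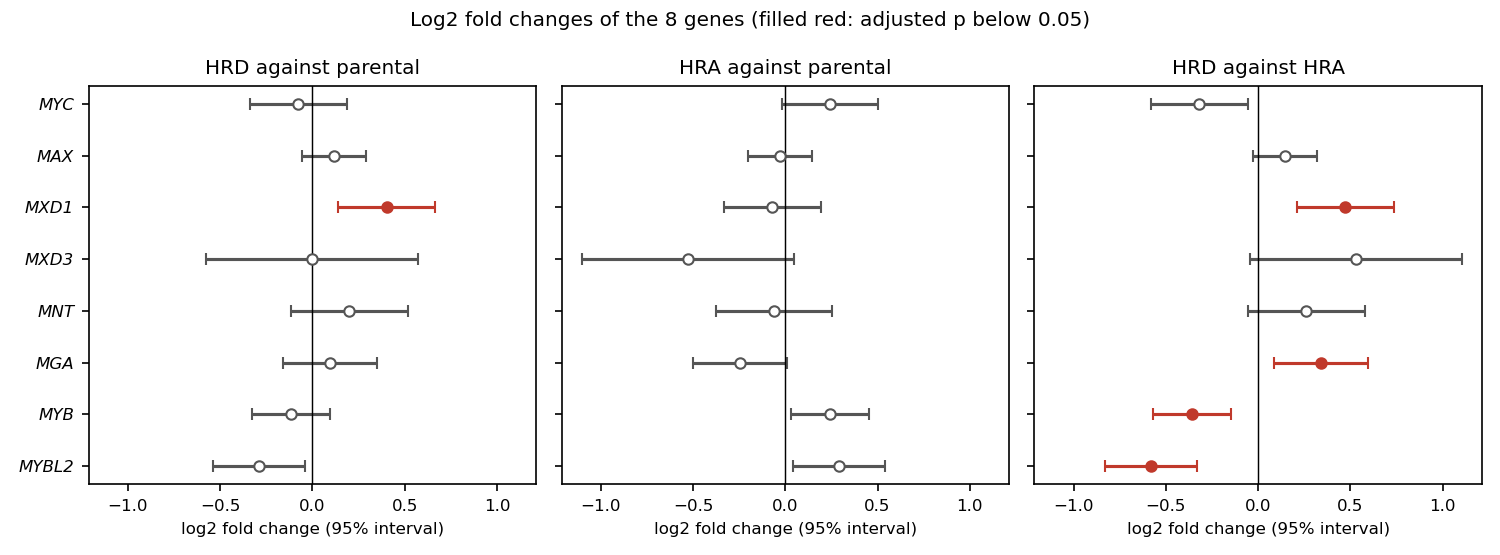
Log2 differences of the 8 members with 95% intervals, for HRD against parental, HRA against parental and HRD against HRA. MYBL2 at −0.58 and MXD1 at 0.47 are the clearest in HRD against HRA, and none of the 8 is called in HRA against parental.

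In 6 of 8 members (all but MNT and MGA) the HRD and HRA libraries did not overlap, beside 47% of all tested genes. For HRD against parental this held for 1 member (MXD1), beside 35.3% of genes, and for HRA against parental for 3 (MXD3, MYB and MYBL2), beside 38% of genes. With 3 libraries against 3, an exact permutation test cannot go below a 2-sided p of 0.1, so such separation alone passes no threshold.

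Ratios of MYC to MXD1, MGA and MNT, and also to the shared partner MAX, were lower in HRD than in HRA libraries. The ratio of MYC to MXD1 normalised counts was 22.1, 20.8 and 28.5 in HRD, 48.5, 36.4 and 38.6 in HRA and 42.3, 27.2 and 30.8 in parental libraries. The HRD and HRA ranges did not overlap, and the HRD and parental ranges met between 27.2 and 28.5. The ratio to MGA was 4.94 ± 0.537 in HRD, 7.81 ± 0.896 in HRA and 5.60 ± 1.07 in parental cells, and that to MNT was 44.4 ± 2.66 in HRD, 66.7 ± 8.71 in HRA and 54.0 ± 7.03 in parental cells (SD, n = 3 each). These ratios are not scaled by length, so they compare groups and not genes. Of the length-scaled reads of MYC, MYCL and the 6 opponents (MXD1, MXI1, MXD3, MXD4, MNT and MGA), MYC took 88.5% to 89.9% in HRD, 91.5% to 93.4% in HRA and 89.2% to 92.2% in parental libraries. No test was made of these ratios and shares. Ratios of MYC to MXD3, MXI1 and MXD4 were not computed. The log2 differences of these genes for HRD against HRA were 0.53, −0.21 and 0.21 in that order, none of them called.

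MYC lies on chromosome 8, where the estimates for HRA against parental centred above 0. The median log2 difference of the 370 tested coding genes of chromosome 8 was 0.16 for HRD against parental, 0.49 for HRA against parental and −0.34 for HRD against HRA. MYC was −0.24 and −0.25 relative to the first 2 of these medians and 0.02 relative to the third. Of its 10 nearest tested coding genes, 4 rose and 1 fell in HRD, 8 rose and none fell in HRA, and none were higher and 7 lower in HRD than in HRA. Among all tested genes, 10.7% rose and 12% fell in HRD, and 9.13% rose and 6.1% fell in HRA. Between the lines, 13.9% were higher and 16.2% lower in HRD. NDUFB9, a respiratory complex I subunit, had 0.32 in HRD (adjusted p = 0.0800) and 0.81 ± 0.12 in HRA (limma adjusted p = 0.00146), while TRIB1, a pseudokinase that promotes C/EBPα breakdown and the next tested coding gene on one side of MYC, fell by 0.33 ± 0.09 in HRD (limma adjusted p = 0.0193) and had 0.04 in HRA (0.806). The TRIB1 call in HRD was lost without HRD replicate 2, HRD replicate 3 or parental replicate 3, with adjusted p up to 0.0786. The part of the shift of the whole chromosome in these values was not tested.

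Noncoding RNA genes next to MYC had larger log2 differences than MYC. PVT1, the long noncoding RNA gene that follows MYC, had 130, 146 and 145 normalised counts in HRD, 401, 371 and 454 in HRA and 304, 245 and 369 in parental libraries. All HRD libraries lay below all others, and all HRA libraries above all parental ones. It fell by 1.10 ± 0.16 in HRD against parental on the log2 scale (limma adjusted p = 7.18e-04), and HRD stood at −1.53 ± 0.16 against HRA (limma adjusted p = 6.79e-05). In HRA against parental it had 0.43 ± 0.16 with an adjusted p of 0.0950, which became 0.0469 in the model blocked by replicate number and 0.0436 without parental replicate 3, in a range of 0.0436 to 0.323. CCDC26, a myeloid long noncoding RNA gene further on, had 202, 224 and 201 normalised counts in HRD, 414, 518 and 392.3 in HRA and 244, 317 and 304 in parental libraries. Its log2 difference was −0.45 ± 0.15 in HRD against parental (limma adjusted p = 0.0490), 0.61 ± 0.15 in HRA against parental (0.0194) and −1.07 ± 0.15 in HRD against HRA (4.51e-04). Its call in HRD against parental was lost without 7 of the 9 single libraries (all but HRA replicate 2 and parental replicate 1, up to 0.151), and that in HRA without HRA replicate 1, HRA replicate 2 or parental replicate 1 (up to 0.0878). The ratio of MYC to PVT1 normalised counts was 117 ± 12.7 in HRD, 50.3 ± 6.28 in HRA and 57.4 ± 6.96 in parental cells (SD, n = 3 each).

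**Figure D3:**
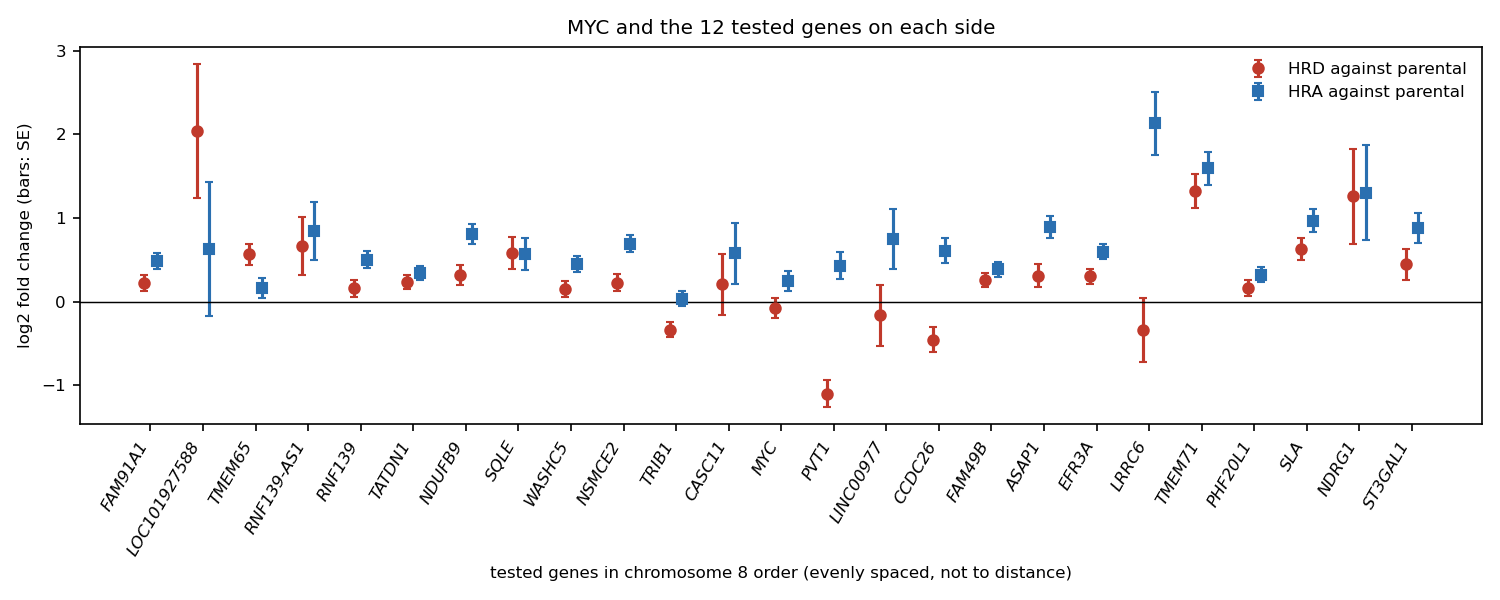
Log2 differences with SE for MYC and up to 12 tested genes on each side of it on chromosome 8, in the RefSeq order, for HRD and HRA against parental. Most neighbours lie above 0 in HRA, and PVT1 at −1.10 is the lowest in HRD.

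Neighbours of the other called members are given for comparison. MYBL2 is on chromosome 20, whose median was −0.23 in HRD and −0.002 in HRA against parental and −0.19 for HRD against HRA. Of its 10 neighbours, none rose and 5 fell in HRD, 1 rose and 1 fell in HRA, and none were higher and 6 lower in HRD than in HRA. Relative to the chromosome median, MYBL2 was −0.06 in HRD and 0.29 in HRA against parental, and −0.39 for HRD against HRA. MXD1 had 3 of 10 neighbours higher and none lower in HRD against parental, none higher and 1 lower in HRA against parental, and 4 higher and none lower in HRD against HRA. MYB went against its neighbours, of which 5 were higher and 1 was lower in HRD than in HRA. Around MGA, 1 neighbour was higher and none lower in HRD than in HRA. Beside these counts, 10.7% of all tested genes were higher and 12% lower in HRD against parental. The shares were 9.13% and 6.1% for HRA against parental, and 13.9% and 16.2% for HRD against HRA. Whether position played a part in the members' values was not tested.

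Beyond the members, the network has 4 other tested genes, and MLX, the MAX-like partner of the MXD factors and of the glucose-sensing Mondo proteins, was the only 1 of them to change against parental cells. Its normalised counts were 1852, 1774.5 and 1653 in HRD, 2639.9, 2776 and 2773 in HRA and 3224, 3265 and 2828 in parental libraries. No HRD library reached the others, and HRA lay below all parental libraries. MLX fell by 0.82 ± 0.08 in HRD against parental on the log2 scale (limma adjusted p = 4.85e-05) and was lower in HRD than in HRA (−0.63, limma adjusted p = 2.70e-04), with −0.18 in HRA against parental (0.153). Exons of MLX overlap those of PSMC3IP on the opposite strand, a meiotic recombination gene that fell by 1.30 ± 0.08 in HRD against parental, and reads of such a pair cannot be told apart without the strand setting. MLX lies on chromosome 17. The median of its tested coding genes was −0.19 in HRD and −0.03 in HRA against parental, and −0.18 for HRD against HRA. MLXIP, a Mondo protein, was lower in HRD than in HRA (−0.30, limma adjusted p = 0.0389), a call lost without HRD replicate 1 or 2, HRA replicate 1 or 3, or the libraries numbered 2 (0.130). MXI1 and MXD4, which act like MXD1, were not called in any comparison. MYCL, another MYC gene, had 21 reads in all in HRD, 6 in HRA and 13 in parental cells and was not tested.

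**Figure D4:**
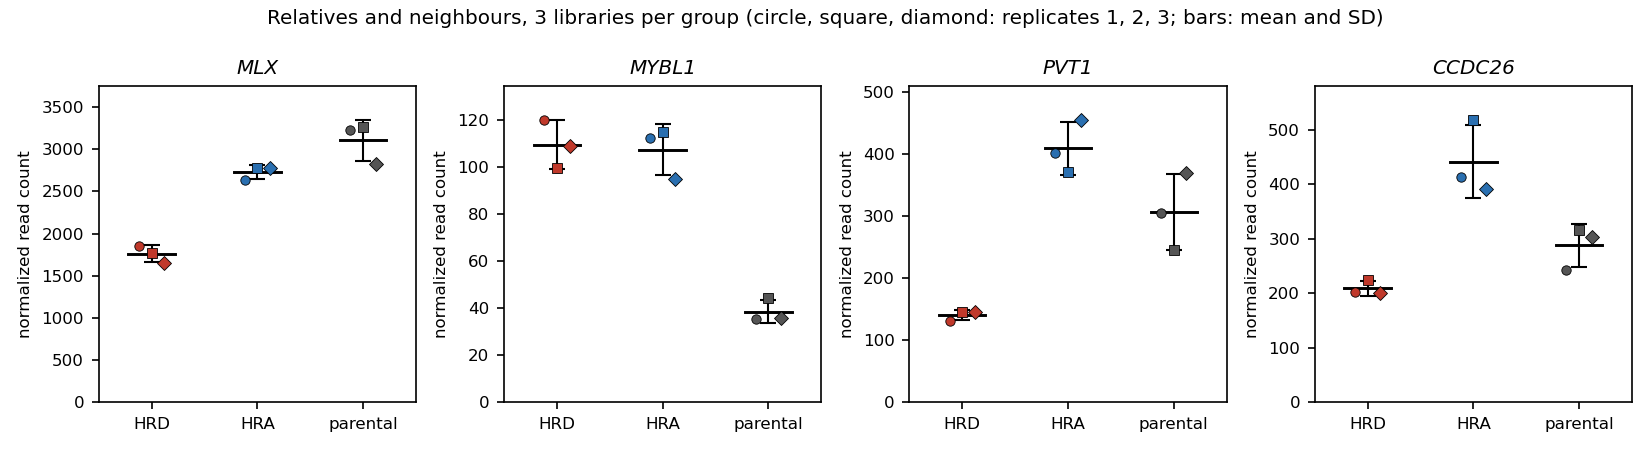
Normalised read counts of MLX, MYBL1, PVT1 and CCDC26 in each library (circle, square and diamond are replicates 1, 2 and 3; bars are the group mean and SD), each on its own scale from 0. MLX is lowest in HRD, MYBL1 lies between 95.03 and 120.1 in both resistant lines and at most at 44.2 in parental libraries, and PVT1 and CCDC26 are lowest in HRD and highest in HRA.

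The SIN3 corepressor complex, through which MXD1, MXD3 and MNT silence genes, changed in a few subunits. Of 12 tested genes, counted with NCOR1, a corepressor outside this complex, 1 rose and 2 fell in HRD and none changed in HRA. Between the lines, 2 (1 of them NCOR1) were higher and 2 lower in HRD than in HRA. Among all tested genes, 22.8% changed in HRD, 15.2% in HRA and 30.1% between the lines. HDAC2, a catalytic deacetylase, rose in HRD (0.28 against parental and 0.45 against HRA). ARID4A and SUDS3, scaffold subunits, fell in HRD (−0.37 and −0.32 against parental, −0.53 and −0.38 against HRA), and NCOR1, another corepressor, was higher in HRD than in HRA (0.39). The HDAC2 call against parental was lost without parental replicate 2 (0.0545) and that of SUDS3 without HRD replicate 2 (0.0524). No gene of this list was called in HRA by edgeR and 1 was by DESeq2 or without parental replicate 1.

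Of 13 tested coactivators that MYC recruits, none rose and 4 fell in HRD against parental, beside 10.7% higher and 12% lower among all tested genes. Against parental cells, 1 rose and 1 fell in HRA, beside 9.13% and 6.1% of all genes, and 1 was higher and 5 lower in HRD than in HRA, beside 13.9% and 16.2%. The median log2 differences were −0.07, −0.07 and −0.33, and whether these counts differ from those of other genes was not tested. KAT2A (GCN5), a histone acetyltransferase, fell in HRD to 1276 ± 72.0 normalised counts, against 2401 ± 247 in parental cells (log2 difference −0.91, limma adjusted p = 2.04e-04). Like MLX, KAT2A lies on chromosome 17, and the part of that chromosome's shift in either value was not tested. CCNT1, the cyclin of the elongation kinase P-TEFb, had −0.52 (limma adjusted p = 0.00454). WDR5, a chromatin adaptor of MYC, and EP400, a remodelling ATPase, also fell, by 0.49 and 0.39, the EP400 call being lost without HRD replicate 2, HRA replicate 1 or parental replicate 3 (up to 0.108). In HRA against parental, RUVBL1, a helicase of the same remodeller as EP400, fell by 0.36. The 2 calls in HRA rest on single libraries: none of 13 were called without HRA replicate 2, HRA replicate 3 or parental replicate 2, and 1 was without HRA replicate 1, parental replicate 1 or parental replicate 3.

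Genes that set the stability of the MYC protein changed in both directions. Of 17 tested, 1 rose and 4 fell in HRD, 1 rose and 3 fell in HRA, and 3 were higher and 3 lower in HRD than in HRA. The shares of all tested genes that changed were 22.8%, 15.2% and 30.1% in that order. Whether the counts differ from these was not tested. PIM1, a kinase that stabilises MYC, reached 409 ± 19.5 normalised counts in HRD, against 225 ± 80.3 in parental cells (0.91, limma adjusted p = 0.0193). That call was lost without HRD replicate 2, parental replicate 1 or parental replicate 3, with adjusted p up to 0.0672. The proteases SENP1 and USP36 fell in HRD (−0.50 each). PPP2R5A, a phosphatase subunit that favours MYC breakdown, fell in both lines, by 0.41 in HRD (limma adjusted p = 0.00947) and by 0.66 in HRA (limma adjusted p = 0.00114) against the same parental libraries, and HRD against HRA was not called (0.25, limma adjusted p = 0.0613). Its HRD call was lost without the libraries numbered 2 (0.0644). USP28, a deubiquitinase that protects MYC, rose in HRA (0.48, limma adjusted p = 0.00483) and had 0.25 in HRD (0.0619). The HRA count became 2 without any 1 of HRA replicates 1 to 3 or without parental replicate 2.

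Of 39 tested textbook targets that MYC activates, none rose and 6 fell in HRD against parental, and the share that fell is near the background: 12% of all tested genes fell and 10.7% rose. For HRA against parental, 1 rose and 2 fell, beside 9.13% and 6.1% of all genes, and 2 were higher and 6 lower in HRD than in HRA, beside 13.9% and 16.2%. The medians were −0.03, −0.11 and −0.09, close to those of all genes. CCND2, cyclin D2, fell most in HRD, to 1600 ± 290 normalised counts, against 5116 ± 227 in HRA and 6683 ± 542 in parental cells (−1.69 against HRA and −2.08 against parental, limma adjusted p = 3.93e-06 and 6.68e-07). TERT, the catalytic subunit of telomerase, fell in both lines (−1.57 in HRD and −0.85 in HRA against the same parental libraries), in HRA with a call lost without HRA replicate 1 or 2 or parental replicate 1 or 3 (up to 0.115). FBL, a nucleolar methyltransferase, rose in HRA (0.40, limma adjusted p = 0.0406), a call lost without any 1 HRA replicate or without parental replicate 2 or 3 (up to 0.165). NCL and WDR12, of ribosome production, were higher in HRD than in HRA (0.38 and 0.45), and the NCL call was lost without HRD replicate 1, any 1 HRA replicate, or parental replicate 1 or 2 (up to 0.130). The HRA count depended on single libraries: it was 0 without HRA replicate 1 or 2, 1 without HRA replicate 3, parental replicate 2 or parental replicate 3, 5 without HRD replicate 3, 8 without HRD replicate 1 or in DESeq2, and 9 in the model blocked by replicate number. The HRD count was 3 without HRD replicate 2 or 3, and 11 in the blocked model. The HRD against HRA count was 5 without HRA replicate 1, 4 without HRA replicate 3 and 12 in the blocked model. In RefSeq promoters, 47.2% of the 36 matched targets held an E-box, against 7.43% of all promoters. Genes that MYC represses were few: of 7 tested, CEBPA, the C/EBPα gene of granulocyte fate, was the only 1 called, falling in HRD (−0.42) and rising in HRA (0.63). Its HRD call was lost without HRD replicate 1 or 2 or any 1 parental replicate (up to 0.113), its HRA call was not lost without any 1 library, and without parental replicate 2 the HRA count was 2. With a block for replicate number, 4 of the 7 were called in HRD against parental and 3 in HRA against parental.

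Partners and targets of MYB changed in a few genes, in both directions. Of 6 coactivator genes, 1 rose and 2 fell in HRD, 1 rose in HRA, and 1 was higher and 1 lower in HRD than in HRA. TAF12, a TFIID subunit that MYB contacts, rose in HRD and HRA (0.45 and 0.53 against the same parental libraries), and MEN1, menin, fell in HRD (−0.39). EP300, the p300 acetyltransferase, was higher in HRD than in HRA (0.33). The MEN1 call against parental was lost without HRD replicate 1, parental replicate 1 or parental replicate 3 (up to 0.0923), and that of EP300 without HRD replicate 1 or 3 or HRA replicate 1 or 2 (up to 0.114). Of 9 tested MYB targets, 3 rose and 1 fell in HRD, 2 rose and 1 fell in HRA, and 2 were higher and none lower in HRD than in HRA. Beside the counts of both lists, 22.8%, 15.2% and 30.1% of all tested genes changed in these comparisons. CDK6, a cell cycle kinase, had 6157 ± 1356 normalised counts in HRD, 5292 ± 436 in HRA and 2600.1 ± 151 in parental cells, which is 1.22 and 1.02 higher on the log2 scale (limma adjusted p = 1.37e-04 and 0.00104). CD4 rose in both lines (0.49 and 0.72), PRTN3, proteinase 3, fell in HRA (−1.64), and GFI1, a granulocyte repressor, was higher in HRD than in parental cells (0.25) and in HRA (0.29). The PRTN3 call was lost without HRA replicate 2 (0.0555), the GFI1 call against HRA without HRA replicate 3 (0.0604) and that against parental without HRD replicate 2 or 3, HRA replicate 1, or parental replicate 2 or 3 (up to 0.107). The MYB coactivator count was 1 in HRD without parental replicate 3, 2 in HRA without parental replicate 1, and 0 or 1 between HRD and HRA without any 1 library of those lines but HRD replicate 2, and the target count fell to 2 in HRD without HRD replicate 3 or parental replicate 2 and to 1 between the lines without HRD replicate 3, HRA replicate 2 or HRA replicate 3.

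Genes of MuvB and its partners, with which MYBL2 acts, changed in 5 of 13 in HRD (2 higher, 3 lower), 4 in HRA (3 higher, 1 lower) and 5 between HRD and HRA (2 higher, 3 lower). Over all tested genes the shares were 22.8%, 15.2% and 30.1%, and whether the counts differ from them was not tested. LIN9, the core subunit that carries MYBL2 to promoters, fell in HRD (−0.33) and HRA (−0.58). E2F5, a repressor E2F of the resting-state complex, rose in both (0.71 and 0.56), and TFDP2, an E2F partner, fell in HRD (−0.61 against parental and −0.52 against HRA). Calls were lost for LIN9 in HRD without HRD replicate 2 (0.0523), for TFDP2 between the lines without HRA replicate 3 (0.0523) and for E2F5 in HRA without HRA replicate 1 or 3 or parental replicate 2 or 3 (up to 0.106). MYBL1, given above, is the other gene of this list that rose in both lines. E2F5 and MYBL1 lie on chromosome 8, whose median was 0.16 in HRD and 0.49 in HRA against parental. Of the 10 neighbours of MYBL1, 3 rose in HRD and 6 rose in HRA, and none fell in either, beside 10.7% of all tested genes that rose in HRD and 9.13% in HRA. The part of the chromosome's shift in these values was not tested. The count was 3 in HRD without HRD replicate 2, 2 in HRA without HRA replicate 1, and 1 to 3 between the lines without any 1 of their 6 libraries or parental replicate 2.

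Cell cycle genes bound by MYBL2 and MuvB were more often higher than lower in HRD against HRA, the comparison in which MYBL2 itself was lower. Of 19 tested, 11 were higher and 2 lower in HRD than in HRA, with a median log2 difference of 0.34, beside 13.9% higher and 16.2% lower among all tested genes. In HRD against parental 4 rose and 3 fell (median 0.11), beside 10.7% and 12% of all tested genes. In HRA against parental none rose and 2 fell (median −0.19), beside 9.13% and 6.1%. PLK1, a mitotic kinase, had 3886 ± 228 normalised counts in HRD, 2166 ± 303 in HRA and 2859 ± 21.6 in parental cells, which is 0.85 for HRD against HRA (limma adjusted p = 1.57e-04), 0.44 for HRD against parental (0.00936) and −0.41 for HRA against parental (0.0200). CENPF, a kinetochore protein, fell in HRA (−0.79) and was higher in HRD than in HRA (0.53), and CCNB1, cyclin B1, rose in HRD against parental (0.41). TOP2A, topoisomerase II alpha and a target of daunorubicin, went the other way, with 16041 ± 1614 in HRD, 25085 ± 967 in HRA and 30618 ± 3305 in parental cells (−0.93 for HRD against parental, limma adjusted p = 1.05e-04, and −0.65 for HRD against HRA). AURKB, a mitotic kinase, was also lower in HRD than in parental cells and HRA (−0.34 each, limma adjusted p = 0.0428 and 0.0351), and its call against parental was lost without any 1 of 7 libraries, all but HRD replicate 2 and HRA replicate 2 (up to 0.113). Calls were lost for PLK1 in HRA without HRA replicate 2 or parental replicate 2 (up to 0.0697), for CCNB1 in HRD without HRD replicate 1 or parental replicate 1 or 2 (up to 0.0523), and between the lines for CENPF without HRD replicate 1 or 3 or HRA replicate 1 or 2 (up to 0.0979) and for AURKB without any 1 of 5 of their 6 libraries (up to 0.134). The count of 13 between the lines was 8 without HRA replicate 2 and 5 without the libraries numbered 2. In HRD against parental the count of 7 was 4 without HRA replicate 3 and 3 without parental replicate 1 or 2, and in HRA against parental the count of 2 was 5 without HRD replicate 1 and 1 without HRA replicate 2 or parental replicate 2. Of 16 matched promoters of these genes, 56.2% held TTTGAA, the CHR element that MuvB recognises, against 15.4% of all promoters.

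**Figure D5:**
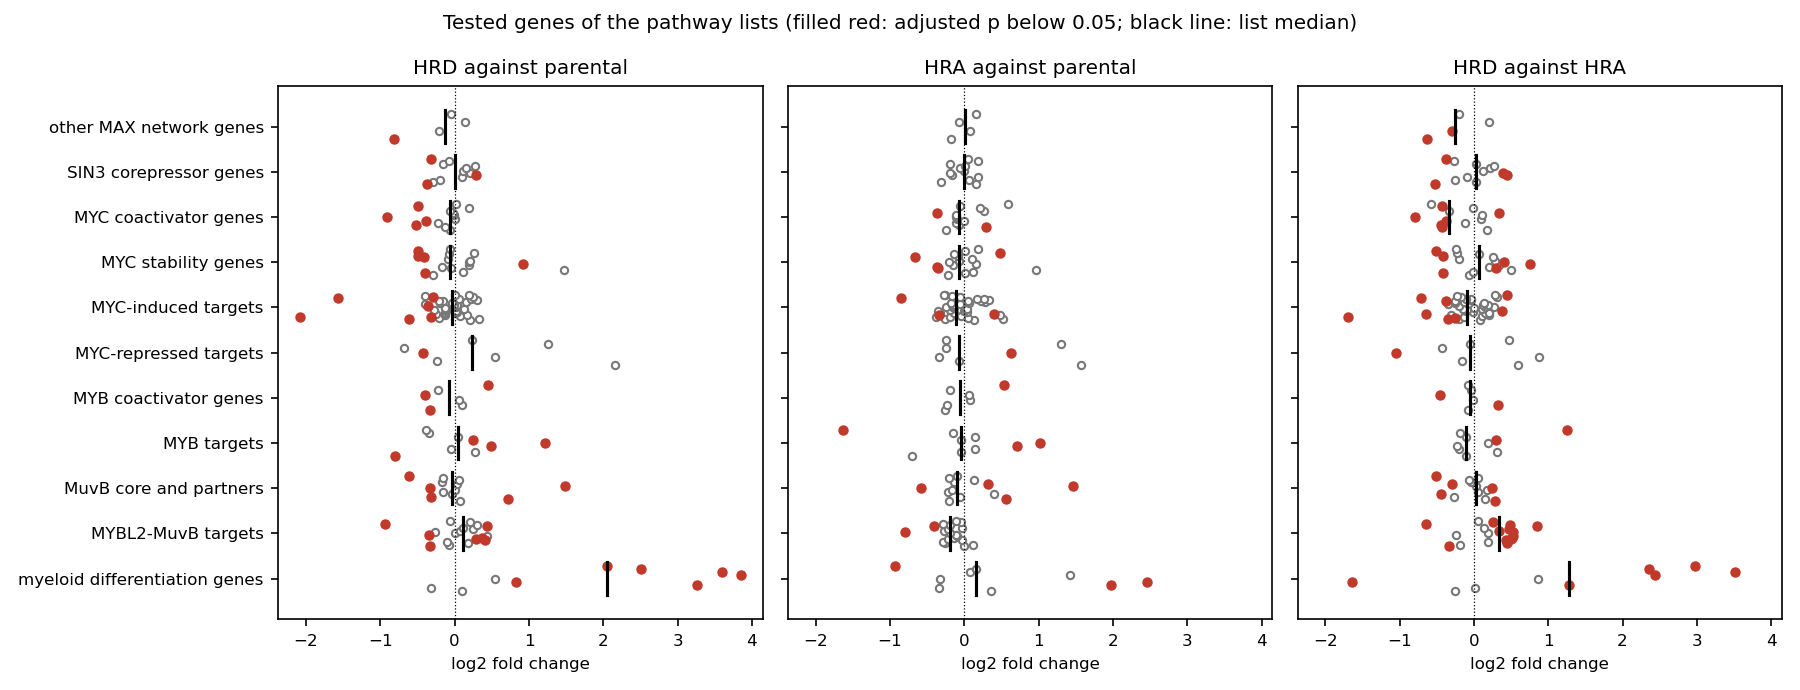
Log2 differences of the tested genes of each list (1 point a gene; filled red, called at adjusted p below 0.05; open, not called; black line, list median), for HRD against parental, HRA against parental and HRD against HRA. The MYBL2-MuvB targets have 11 higher and 2 lower in HRD against HRA, and MYC-induced targets have 6 lower and none higher in HRD against parental.

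Because MXD1 gain and MYC loss accompany HL-60 maturation, genes of late myeloid maturation were also followed. Of 14 listed, 9 were tested, and 6 rose and none fell in HRD, 2 rose and 1 fell in HRA, and 5 were higher and 1 lower in HRD than in HRA. In these comparisons 22.8%, 15.2% and 30.1% of all tested genes changed. Several of the listed genes are near 0 in parental cells and entered the test through the group where they are high, so their count is a description only. CYBB, the membrane subunit of the NADPH oxidase, had 853 ± 193 normalised counts in HRD, 344 ± 18.5 in HRA and 86.7 ± 6.94 in parental cells. MMP9, gelatinase B, had 45.5 ± 31.6 in HRD, 7.20 ± 4.87 in HRA and 2.31 ± 2.25 in parental cells. NCF4, an oxidase regulator, was at 908 ± 324 in HRD, 111 ± 26.6 in HRA and 209 ± 32.8 in parental cells, and FCGR1A, the high-affinity IgG receptor, had 227 ± 40.8 in HRD, 723 ± 227 in HRA and 128 ± 21.6 in parental cells. The calls of FCGR1A in HRD and NCF4 in HRA against parental were lost without HRD replicate 2 or parental replicate 1 (up to 0.0763) and without HRA replicate 1 or 3 or parental replicate 1 or 3 (up to 0.123) in that order. NCF1 rose by 3.60 ± 0.46 on the log2 scale in HRD but shares near-identical copies (NCF1B and NCF1C), so its reads are uncertain. Of the promyelocyte markers, 4 were tested: 1 fell in HRD, 2 fell in HRA and 2 were higher in HRD than in HRA, among them CTSG, cathepsin G (−0.69 in HRD and −1.39 in HRA against parental), and single libraries set the second of those calls in HRA and between the lines (PRTN3, above). Of the B cell markers only CD79A was tested, falling in HRD against parental (−1.60, a call lost without 5 single libraries) and against HRA (−2.71) at levels near 0. The part of these marker changes in the members' values was not tested.

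The genes whose levels ran most like each member's across the 9 libraries were listed as a description, by Pearson r on log2 values among 9797 genes with a mean of at least 100. These r rest on 9 points that share 3 groups and on sequencing depth, and the highest of so many is high by selection. MYBL2 ran most like the ribosomal protein genes RPL18 (0.988) and RPL12 (0.988). MXD1 ran most like NEK3 (0.984), TAB2 (0.966) and ADGRE2 (0.965), and MGA like PKD2 (0.980), MTMR10 (0.973) and ANKRD50 (0.965). For MYB these were ZNF252P (0.965), TMEM230 (0.946) and TTC17 (0.944), and for MYC they were DHX34 (0.937), MTSS1L (0.917) and MLLT1 (0.916). MAX ran most like CFAP20 (0.950), NFU1 (0.925) and TXNL1 (0.923), MNT like KHDC1 (0.976), CTC-338M12.4 (0.970) and TMEM161B-AS1 (0.953), and MXD3 like GCAT (0.956), PLPPR3 (0.933) and TSPAN32 (0.932). No member was among the 3 nearest genes of another member.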

How the data were processed

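PolyA RNA of 9 HL-60 libraries was sequenced after a stranded mRNA preparation, per the labels' protocols. The deposited values are read counts divided by a size factor per library, a signal that is no longer whole. The submitters' processing notes name the build hg19 and, with no role or setting, HTSeq 0.11.1, DESeq2, Cufflinks 2.2.1, Picard, TopHat2 2.1.1 and Bowtie2 2.3.5.1. Whole reads were recovered from the value of 1 read in each library: 100% of values came out whole within 0.001, and 20822709 to 66563328 reads per library followed. No column was left unused.

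Genes with at least 10 in at least 3 libraries (12569 of 20637, holding 99.969% of reads) were tested with limma 3.58.1 (trend) on log2(value + 1), 1 model over the 9 libraries, with Benjamini-Hochberg adjustment over all tested genes, called at adjusted p below 0.05. Fold changes of low genes are understated by the pseudocount. The same fit on data simulated for HRD against parental over 12569 genes recovered 49% of 1.5-fold and 88% of 2-fold changes, with 9 false among 146 calls. Alternatives were pseudocounts of 0.5 and 8, no filter, a filter of 50, TMM scaling, edgeR 4.0.16 and DESeq2 1.42.0 on recovered reads, only 2 groups, the replicate block, each library left out, the libraries numbered 2 left out, and a threshold of 0.01. Same-numbered HRA and parental libraries deviated together (r = 0.22, 0.38 and 0.14). The main fit has no term for the replicate number, so its calls are unpaired in every comparison. The replicate block takes the numbers as pairs, and its value is given for the calls of members that it changes and for some list counts. For HRA against parental it called 1 member and 2774 genes, where the main fit called 0 and 1915.

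Named are all 8 members, up to 4 called genes of each list at the ends of its log2 differences (2 highest, 2 lowest), the 3 genes most like each member, PVT1 and markers near 0. CCDC26, the genes next to MYC, genes that overlap a member, MYBL1, MXI1, MXD4 and MYCL, and further called genes of a list such as WDR5, EP400, SUDS3, FCGR1A and NCF4, or further comparisons of a named gene, were added after their values were seen. Some genes that these rules name are not reported here. The members and lists were chosen with earlier results of these data known. Chromosomes and gene order come from RefSeq by symbol. Intervals and tests cover the spread between these libraries.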

Additional observations from a re-analysis of the deposited data

Results flagged for a closer look

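The difference from parental cells was not the same in HRD and HRA for 4 members and for PVT1, by the test of that contrast itself. In this test the shared parental libraries cancel, so it equals HRD against HRA. Of the 4 members, MXD1 was called against parental cells in HRD, and MGA, MYB and MYBL2 were called against parental cells in neither line. The difference was 0.47 for MXD1, 0.34 for MGA, −0.36 for MYB, −0.58 for MYBL2 and −1.53 for PVT1 on the log2 scale. The limma adjusted p-values were 0.0128, 0.0449, 0.0166, 0.00343 and 6.79e-05 in that order. HRD and HRA libraries did not overlap for MXD1, MYB, MYBL2 and PVT1, and overlapped for MGA. MXD1 differed through a higher level in HRD. MYBL2 lay on opposite sides of parental cells in the lines, with neither difference from parental past the threshold. No explanation of these differences was tested.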

How the results depend on the processing

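The call that MYBL2 was lower in HRD than in HRA held under all 20 alternatives, and those of MXD1, MGA and MYB were lost under some, as given with each gene. Of 8 members, the number called in HRD against parental (1) was 0 with only the 2 groups fitted, without the libraries numbered 2 and at a threshold of 0.01, and 0 to 2 with single libraries left out. In HRA against parental (0) it stayed 0 with single libraries left out. In HRD against HRA (4) it was 2 without the libraries numbered 2, 1 at a threshold of 0.01, and 1 to 4 with single libraries left out. Over all genes, HRD against parental (2863) gave 1470 without the libraries numbered 2, 1446 at a threshold of 0.01 and 2034 to 2899 with single libraries left out. HRA against parental (1915) gave 712, 741 and 904 to 2317, and HRD against HRA (3787) gave 1825, 1907 and 2391 to 3933, in the same order of alternatives.

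With a block for replicate number, 2 members were called in HRD against parental, where MYBL2 passed as well (adjusted p = 0.0228), 1 in HRA against parental and 5 in HRD against HRA, where MYC passed (0.0144). For the HRD comparisons the numbers did not pair all libraries (r = −0.08, 0.26 and 0.29 against parental, −0.03, 0.41 and 0.23 against HRA), so these calls are a hint from the data.

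Values near 0 changed sign. MXD3 in HRD against parental was 0.00063 with a pseudocount of 8 and −0.25 to 0.23 with single libraries left out. In HRA against parental that range was −0.067 to 0.034 for MAX, −0.18 to 0.016 for MXD1 and −0.14 to 0.0041 for MNT, and in HRD against HRA it was −0.058 to 0.094 for MYBL1. Over all results and alternatives, 3006 were the same, meaning a kept side of the threshold or a count within 1.5 times. Of the rest, 313 calls were lost, 10 were gained, 137 counts moved by more and 11 estimates reversed. Genes other than the members, MYBL1 and PVT1 were entered because they were called, which favours losses over gains. Simulated 1.5-fold changes were recovered in 49% of cases and 2-fold changes in 88% for HRD against parental. A gene not called there may thus still differ by 1.5-fold or more. The simulated data gave 146 calls, far fewer than the 2863 of the real data, so the recovery there may differ.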
